A study of Mus musculus with 8 samples.

Results

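Homologous recombination and the Fanconi anemia pathway repair broken and crosslinked DNA, mostly in cells that are copying their genome. A set of 32 genes of both pathways was taken by Ensembl gene ID from the 48440 genes quantified in sorted jejunal epithelial cells of conventionalized and germ-free mice, and all 32 were found. The set was compared between the conditions and with the library-to-library level of Mki67, a protein of dividing cells that is widely used as a proliferation marker.

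Conventionalized animals were females of a Sox9-EGFP line (C57BL/6J background), born germ-free, that were moved to another animal facility at 8 to 10 weeks of age. They were gavaged there with a slurry of feces from conventionally raised Sox9-EGFP mice and studied 2 weeks later. Germ-free animals were their female Sox9-EGFP littermates, which kept their germ-free status. Each condition had 4 animals, 1 from each of the littermate pairs A to D, and the animal of each pair to be conventionalized was picked at random. The move between facilities and the microbiota cannot be told apart. All 8 animals carried the reporter, in which green fluorescence marks expression of the transcription factor Sox9, and the libraries came from cells with a low reporter signal, a fraction enriched for crypt base stem cells. Dead and apoptotic cells, leukocytes and endothelial cells had been gated out with Sytox-blue, Annexin-V, CD45 and CD31. The question put to these samples was what the microbiota does to stem cells of the intestine.

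In homologous recombination the ends of a break are first cut back by MRE11, RAD50 and NBN with CtIP (the product of Rbbp8), and then by EXO1 or DNA2. BRCA1, PALB2 and BRCA2 act on the exposed strand, and the products of Rad51b, Rad51c, Rad51d, Xrcc2 and Xrcc3 and translocases of the RAD54 family help it to find and invade a matching duplex. In the Fanconi pathway a core complex and the ubiquitin-conjugating enzyme UBE2T attach ubiquitin to FANCD2 and FANCI at a crosslink, and USP1 takes it off. Many of these genes are known to be transcribed mainly in S and G2 phase, and the dividing cells of the intestinal epithelium lie in the crypts.

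Promoter stretches are printed to show the start-site regions of a called member (Ube2t), of 2 uncalled members of strand invasion with r above 0.5 against Mki67 (Rad51ap1 and Rad54l) and of the tested member with the lowest log2 fold change (Brca2), beside that of Mki67. They are RefSeq sequences on GRCm38.p6, up to 250 bases before the start site, written along the strand of the gene, and capitals mark the letters CCAAT (or ATTGG on the other strand), the E2F letters given below, and TTTGAA.
Ube2t (chr1:134962315-134962564, plus strand): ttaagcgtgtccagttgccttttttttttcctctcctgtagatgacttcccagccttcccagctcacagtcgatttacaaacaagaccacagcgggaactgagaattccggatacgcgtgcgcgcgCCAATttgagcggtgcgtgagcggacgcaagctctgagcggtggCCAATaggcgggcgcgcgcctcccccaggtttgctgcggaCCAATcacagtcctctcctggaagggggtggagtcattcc
Rad51ap1 (chr6:126939588-126939837, minus strand): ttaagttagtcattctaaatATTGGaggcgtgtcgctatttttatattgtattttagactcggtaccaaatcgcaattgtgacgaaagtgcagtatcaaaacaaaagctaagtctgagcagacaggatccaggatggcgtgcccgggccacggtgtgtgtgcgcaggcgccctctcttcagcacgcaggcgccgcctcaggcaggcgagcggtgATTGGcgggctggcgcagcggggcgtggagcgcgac
Rad54l (chr4:116123691-116123839, minus strand): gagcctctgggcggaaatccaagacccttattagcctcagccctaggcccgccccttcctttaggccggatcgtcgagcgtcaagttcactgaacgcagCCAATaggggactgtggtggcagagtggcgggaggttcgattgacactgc
Brca2 (chr5:150522371-150522620, plus strand): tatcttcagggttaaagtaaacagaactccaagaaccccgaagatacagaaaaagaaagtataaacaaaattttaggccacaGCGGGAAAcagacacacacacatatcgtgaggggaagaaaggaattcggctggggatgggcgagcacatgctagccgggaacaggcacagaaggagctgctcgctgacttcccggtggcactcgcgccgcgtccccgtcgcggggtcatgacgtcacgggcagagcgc
Mki67 (chr7:135716380-135716629, minus strand): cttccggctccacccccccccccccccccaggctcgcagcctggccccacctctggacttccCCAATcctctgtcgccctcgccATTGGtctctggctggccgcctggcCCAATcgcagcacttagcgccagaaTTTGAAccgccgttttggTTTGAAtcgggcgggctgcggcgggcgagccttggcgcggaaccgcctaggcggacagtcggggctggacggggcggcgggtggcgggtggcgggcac

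The letters CCAAT, which the factor NF-Y binds, were searched on both strands of the 250 bases before each start site. Ube2t had 3 such matches, Rad51ap1 had 2 and Rad54l had 1, while Mki67 had 3. Of the 32 members, 23 were in the promoter table, and 15 of them held CCAAT, in 17 of their 26 windows (65.4%), against 33.8% of 32851 windows over all genes. The E2F letters TTTCCCGC, TTTGGCGC, TTTCGCGC and TTTGCCGC were in the windows of 3 members, Bard1, Brca2 and Fancg, which is 11.5% of the members' windows against 1.86% of all windows. In the Brca2 stretch they end 161 bases before the start site. The letters TTTGAA, part of the cell-cycle element of late-phase genes, stood in the window of 1 member, Bard1, and in that of Mki67, against 16.0% of all windows. All were searched on both strands, and none of these strings contains another. These are matches of letters, not measured binding.

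Levels below are CPM, the deposited values scaled to a common library total with TMM factors, and each fold change is on the log2 scale, conventionalized divided by germ-free, with its standard error (SE) by limma. A library is called CV (conventionalized) or GF (germ-free) with the letter of its littermate pair. A gene was called when its Benjamini-Hochberg adjusted p over all 10053 genes tested was under 0.05. Depth on an approximate read scale was 6209041 to 19139685 reads per library, lowest in GF C. That library also had the lowest median correlation with the others of its group, 0.792 against 0.871 to 0.943 for the other 7 libraries. The conventionalized library of pair A stood apart by goblet cell markers, whose 7 genes summed to 50799 CPM there and to 1569 to 8181 CPM in the other libraries. The 5 stem cell markers all reached the filter and summed to 4115 to 8466 CPM in conventionalized libraries, against 605 to 4495 CPM in germ-free libraries. The 9 enteroendocrine markers, all of which reached the filter too, summed to 8914 to 22976 CPM in conventionalized libraries and 37278 to 88514 CPM in germ-free libraries. Enterocyte markers (9 genes) summed to 500 to 3213 CPM in conventionalized and 1680 to 4911 CPM in germ-free libraries. Paneth cell markers (7 genes) summed to 2859 to 4184 CPM and 1154 to 5470 CPM in the same order. Tuft cell markers (6 genes) summed to 70.7 to 626 CPM and 278 to 676 CPM. Leukocyte markers summed to 6.79 to 27.6 CPM in conventionalized libraries and 15.5 to 26.9 CPM in germ-free libraries, and none of the 9 reached the filter. The 3 endothelial markers summed to 3.35 to 20.1 CPM in conventionalized libraries and 19.5 to 33.9 CPM in germ-free libraries, and 1 of them reached the filter. The 5 fibroblast markers, none of which reached it, summed to 0.573 to 6.78 CPM in conventionalized libraries and 4.30 to 19.8 CPM in germ-free libraries. No marker was at 0 in every library. The part of these markers in the results below was not tested, and in bulk RNA fewer cells of a type and less RNA per cell cannot be told apart.

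Of the 32 members, 24 reached the filter of 10 CPM in at least 4 libraries, and the same 24 passed a filter on the mean over all 8 libraries. Of these, 3 were called higher in conventionalized cells (12.5%): Ube2t, Fancg and Rad54b. Over all genes tested, 4.92% were called, 1.16% higher and 3.76% lower, and no member was called lower. The 3 members are parts of the Fanconi core machinery and of the RAD54 family of translocases, and their log2 fold changes, back-transformed, were 2.53-fold to 4.28-fold. The median log2 fold change of the 24 tested members was 0.75, beside 0.32 over all genes tested, and 21 of the 24 were above 0, beside 70.2% of all genes. An unadjusted p under 0.05 was found for 14 of the 24, against 27.8% of all genes, and all 14 were higher in conventionalized cells. The 4 conventionalized libraries all lay above the 4 germ-free libraries in 10 of the 24 members (41.7%), against 9.03% of all genes. With the littermate pair as a block, 7 members were called higher (29.2%), against 8.08% of all genes: Usp1, Exo1, Rad54l and Dna2 joined Ube2t, Fancg and Rad54b. Without TMM factors, the median was 0.53 for the members and 0.09 over all genes, so the TMM factors shifted the median of all genes by over 0.1.

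The summed level of the 32 genes was 744, 855, 680 and 899 CPM in libraries CV A to CV D, against 466, 549, 355 and 572 CPM in the germ-free libraries. The lowest conventionalized sum lay above the highest germ-free sum. Among germ-free libraries, pair C was the lowest for 19 of the 32 members and pair D the highest for 17.

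**Figure D1:**
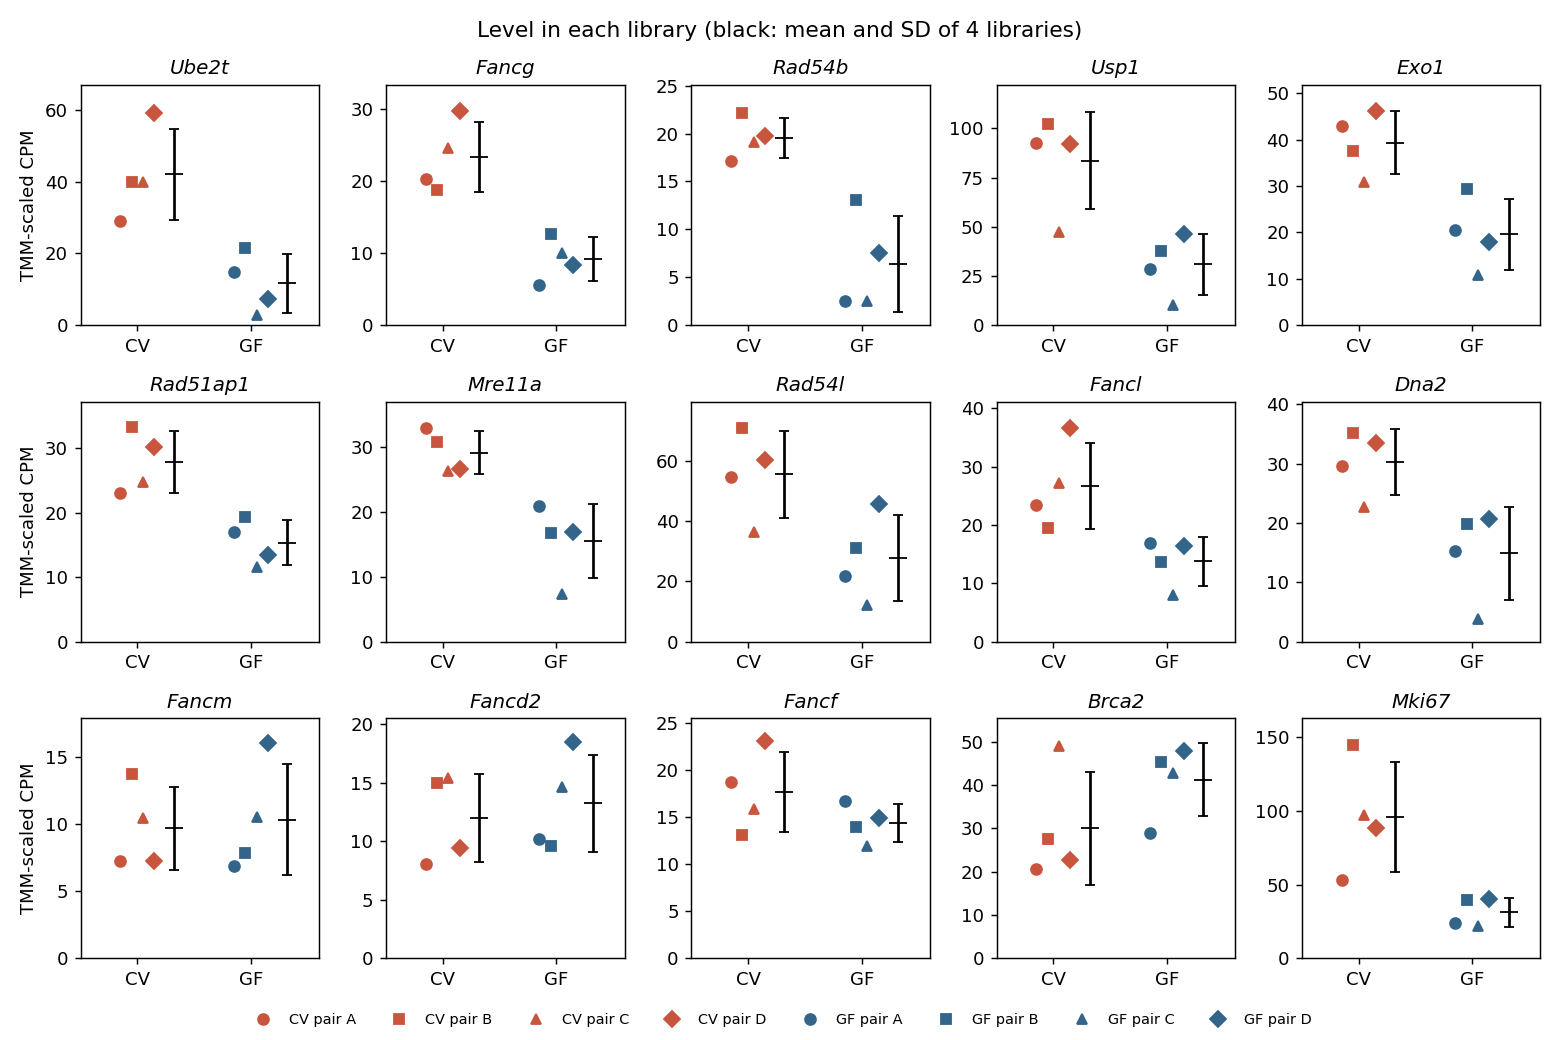
Level (TMM-scaled CPM, vertical axis) of 14 members and Mki67 in each library, conventionalized (CV, red) left of germ-free (GF, blue), with marker shapes for littermate pairs and black bars for the mean and SD of 4 animals. Ube2t, Fancg and Rad54b have all CV points above all GF points, while Fancm, Fancd2, Fancf and Brca2 overlap.

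The Fanconi core complex, with UBE2T, held 2 of the 3 calls, and 8 of its 9 genes were tested. Of all genes tested, 1.16% were called higher. Ube2t (ENSMUSG00000026429.8, chr1:134962565-134974162), the ubiquitin-conjugating enzyme of the pathway, was at 28.9, 40.0, 39.9 and 59.2 CPM in libraries CV A to CV D, against 14.8, 21.4, 2.78 and 7.26 CPM in the germ-free libraries. The groups did not overlap, and the spread was wide among germ-free animals, with pairs C and D far below A and B. The log2 fold change was 2.10 (SE 0.50, limma adjusted p = 0.0286), which is 4.28-fold after back-transformation.
Fancg (ENSMUSG00000028453.10, chr4:43002343-43010506), a subunit that holds the core complex together, was at 20.4, 18.7, 24.6 and 29.7 CPM in libraries CV A to CV D and 5.53, 12.7, 10.1 and 8.36 CPM in germ-free libraries. All conventionalized libraries again lay above all germ-free ones, by a log2 fold change of 1.34 (SE 0.33, adjusted p = 0.0347).
Fancl (chr11:26386135-26471876), the ubiquitin ligase of the complex, had 23.4, 19.4, 27.2 and 36.7 CPM in conventionalized libraries against 17.0, 13.7, 7.94 and 16.4 CPM in germ-free ones. The groups were apart here too, but the log2 fold change of 0.95 (SE 0.33) had an adjusted p of 0.108 and was not called.

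None of the other core subunits was called. Fanca averaged 19.7 ± 0.718 CPM in conventionalized libraries and 13.0 ± 6.34 CPM in germ-free libraries (SD, n = 4 each), with no overlap between the groups and a log2 fold change of 0.72 (SE 0.37, adjusted p = 0.208). Fancc averaged 21.3 ± 3.20 and 16.2 ± 3.72 CPM in conventionalized and GF libraries (log2 fold change 0.41), and Fance 60.0 ± 14.6 and 46.7 ± 6.19 CPM (0.34). Fancf, a small adaptor subunit, was among the 3 tested members with the smallest change.
It had 18.7, 13.1, 15.8 and 23.0 CPM in libraries CV A to CV D and 16.7, 13.9, 11.9 and 14.9 CPM in GF libraries (log2 fold change 0.27, SE 0.30, adjusted p = 0.550). Fancm, the DNA translocase that anchors the complex on DNA, had 7.29, 13.8, 10.4 and 7.22 CPM in conventionalized libraries and 6.89, 7.84, 10.6 and 16.0 CPM in germ-free libraries. Its groups overlapped, with a log2 fold change of -0.07 (SE 0.40, adjusted p = 0.921), which was above 0 in some alternatives. Fancb, the X-linked subunit, stayed under the filter, at 5.59 ± 1.07 CPM in conventionalized libraries and 3.47 ± 1.43 CPM in germ-free libraries.

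Neither substrate of the core complex was called. Fancd2 (chr6:113531682-113597017) had 8.08, 15.0, 15.4 and 9.41 CPM in conventionalized libraries, against 10.2, 9.62, 14.7 and 18.5 CPM in germ-free libraries, with overlapping groups. Its log2 fold change was -0.14 (SE 0.36, adjusted p = 0.802), and its sign turned in some alternatives. Its partner Fanci was under the filter, at 8.88 ± 2.80 CPM in conventionalized libraries and 8.58 ± 2.09 CPM in GF libraries (log2 fold change 0.04, SE 0.37, from a fit with a minimum of 1 CPM).
Usp1 (chr4:98923810-98935543), which removes ubiquitin from FANCD2, lay higher in every conventionalized library than in any germ-free library. It had 92.6, 102.3, 47.3 and 92.0 CPM in libraries CV A to CV D and 28.7, 37.7, 10.4 and 46.2 CPM in germ-free libraries. Pair C was the lowest in both groups, and the groups were apart by 47.3 against 46.2 CPM. The log2 fold change of 1.55 (SE 0.42) had an adjusted p of 0.0511, and of 0.00629 with the littermate pair as a block. Whether Usp1 and Fancd2 changed differently was not tested.

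The strand invasion factors Rad54b, Rad54l and Rad51ap1 all had an unadjusted p under 0.05, against 27.8% of all genes. Rad54b (ENSMUSG00000078773.11, chr4:11558922-11615805), a translocase that remodels DNA during strand invasion, had 17.1, 22.2, 19.1 and 19.7 CPM in libraries CV A to CV D. Germ-free libraries had 2.47, 13.0, 2.46 and 7.49 CPM, all below the lowest conventionalized value and far more spread out. The log2 fold change was 1.84 (SE 0.49, adjusted p = 0.0451).
Of the exon bases of Rad54b, 35.8% are shared on the same strand with Fsbp, a gene that overlaps it, so the counting could split reads between them. Fsbp was listed at 0.555 to 0.870 CPM in conventionalized libraries and 0.115 to 2.15 CPM in germ-free libraries. These values come from the same counting, so they do not show how many of the shared reads belong to Fsbp.
Rad54l (chr4:116094264-116123690), the closer relative of yeast Rad54, had 54.7, 70.7, 36.3 and 60.3 CPM in conventionalized libraries and 21.8, 31.0, 12.1 and 45.7 CPM in germ-free libraries. Every pair was higher in its conventionalized animal, as for 28.4% of all genes tested, but the groups overlapped (log2 fold change 1.11, SE 0.38, adjusted p = 0.104). With the pair as a block the adjusted p was 0.0286. Rad51ap1 (chr6:126923050-126939587), which helps strands to pair, had 23.0, 33.4, 24.8 and 30.2 CPM in conventionalized libraries and 17.1, 19.3, 11.5 and 13.4 CPM in germ-free libraries. The groups were apart, with a log2 fold change of 0.85 (SE 0.29, adjusted p = 0.0994).

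Resection genes lay higher in conventionalized libraries without a call among 6 tested. Of these, 4 had an unadjusted p under 0.05, against 27.8% of all genes. Exo1 (chr1:175880581-175913489), an exonuclease of long-range resection, had 42.9, 37.5, 30.8 and 46.2 CPM in libraries CV A to CV D and 20.4, 29.3, 10.7 and 18.0 CPM in germ-free libraries. The groups did not overlap (log2 fold change 1.06, SE 0.32, adjusted p = 0.0776, and 0.0381 with the pair as a block). Dna2 (chr10:62947026-62974185), the other long-range nuclease, had 29.6, 35.3, 22.7 and 33.5 CPM in conventionalized libraries and 15.3, 19.8, 3.74 and 20.7 CPM in germ-free libraries.
GF C was far below the rest, and the log2 fold change was 1.22 (SE 0.45, adjusted p = 0.126, and 0.0424 with the block). Without GF C it was 0.68. Mre11a (chr9:14784654-14837123), the nuclease that starts resection, had 32.9, 30.7, 26.2 and 26.5 CPM in conventionalized libraries and 20.8, 16.7, 7.38 and 16.9 CPM in germ-free libraries. Its groups were also apart (log2 fold change 0.97, SE 0.33, adjusted p = 0.103).
Its partners were Nbn at 0.77 (SE 0.32, adjusted p = 0.151) and Rad50 at 0.46 (SE 0.30, adjusted p = 0.296) on the log2 scale, and Rbbp8 was at 0.39 (SE 0.30, adjusted p = 0.380). The helicases Blm and Brip1 were under the filter. Brip1, which binds BRCA1 and is given per library after its values were seen, had 15.7, 9.63, 6.40 and 18.1 CPM in conventionalized libraries and 3.56, 4.78, 0.389 and 16.1 CPM in germ-free libraries. GF D was within the conventionalized range, and the log2 fold change in the fit with a minimum of 1 CPM was 1.51 (SE 0.68, adjusted p = 0.212).

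The BRCA complex gave no call, and 1 of its 3 tested genes, Palb2, had an unadjusted p under 0.05, against 27.8% of all genes. Brca2 (chr5:150522630-150570329), a tumor suppressor that acts on the exposed strand, was the tested member with the lowest log2 fold change and is named here after its values were seen. It had 20.7, 27.6, 49.0 and 22.7 CPM in libraries CV A to CV D, against 28.9, 45.2, 42.8 and 47.8 CPM in germ-free libraries. It was higher in the conventionalized animal of pair C only, with a log2 fold change of -0.51 (SE 0.32, adjusted p = 0.286).
Palb2, which links BRCA1 to BRCA2, averaged 17.5 ± 6.98 CPM in conventionalized libraries and 9.77 ± 2.64 CPM in GF libraries (log2 fold change 0.77, SE 0.35, adjusted p = 0.176). Brca1 (chr11:101488764-101551955), likewise named after its values were seen, had 11.97, 17.5, 11.6 and 9.86 CPM in conventionalized libraries and 5.55, 5.61, 10.3 and 30.3 CPM in germ-free libraries. GF D was the highest of all 8, and the log2 fold change was 0.30 (SE 0.49, adjusted p = 0.694). Without GF D it was 0.82, and it was 0.03 without GF A, 0.01 without GF B and 0.14 without CV B. Bard1, the partner of Brca1 in its ubiquitin ligase, averaged 5.32 ± 1.56 CPM and 3.42 ± 1.83 CPM in conventionalized and germ-free libraries.

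Rad51b, Rad51c, Rad51d, Xrcc2 and Xrcc3 encode related proteins that form small complexes in strand exchange, and Xrcc3 and Rad51d were tested. Xrcc3 averaged 39.3 ± 9.24 CPM in conventionalized libraries and 23.4 ± 6.16 CPM in GF libraries (log2 fold change 0.74, SE 0.30, adjusted p = 0.146). Rad51d averaged 34.4 ± 5.89 CPM and 21.8 ± 8.47 CPM in conventionalized and germ-free animals (0.72, SE 0.32, adjusted p = 0.170). Both were higher in the conventionalized animal of all 4 pairs, as were 28.4% of all genes tested. Rad51b, Rad51c and Xrcc2 were under the filter, with log2 fold changes of 1.11, 0.48 and 0.11 in the fit with a minimum of 1 CPM. In that fit all 32 members were tested, 29 were above 0, and Ube2t, Fancg and Rad54b were again the 3 called (background 0.567% called higher). The 8 members under the filter had values of 0.389 to 18.1 CPM per library.

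Per kilobase of transcript the members spanned a wide range of levels. Ube2t averaged 37.6 CPM per kb in conventionalized libraries and 10.4 CPM per kb in germ-free libraries, and Fance averaged 29.6 and 23.1 CPM per kb. Usp1 averaged 23.4 and 8.60 CPM per kb in conventionalized and germ-free libraries. At the low end, Bard1 averaged 0.940 CPM per kb in conventionalized libraries and 0.604 CPM per kb in germ-free libraries, and Rad51c 0.977 and 0.755 CPM per kb. The order at the top thus differed between the conditions, with Ube2t first in conventionalized libraries and Fance first in germ-free libraries, an order of mean levels that was not tested.

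**Figure D2:**
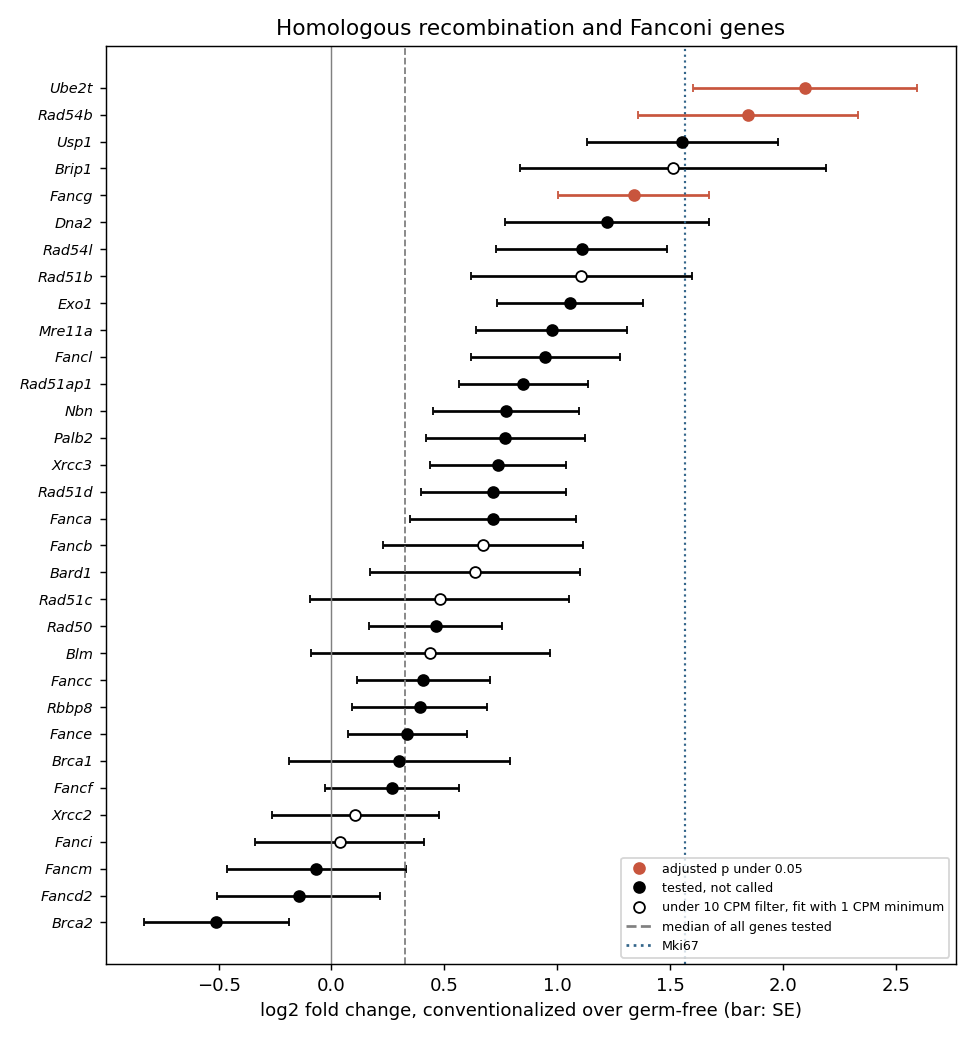
Log2 fold change (horizontal axis, conventionalized over germ-free, bars for SE) of the 32 members, ordered by size, with the median of all genes tested (dashed) and Mki67 (dotted). Ube2t, Rad54b and Fancg, in red, are the called members, and open circles are the 8 members under the filter of 10 CPM.

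The calls depended on single libraries. Ube2t was not called without CV B (adjusted p = 0.0798), C (0.0952) or D (0.0921), or without GF D (0.0742). Fancg and Rad54b were called only without GF B (adjusted p 0.0277 and 0.0103) or GF C (0.00991 and 0.0134), and without any other library their adjusted p was 0.0503 to 0.135. Usp1 was called without GF B (0.0365), C (0.0139) or D (0.0428), and Exo1 without GF B (0.0413). The number of members called was 1 without CV A and 0 without CV B, CV C or CV D. It was 1, 5, 4 and 1 without GF A, GF B, GF C and GF D. The number of all genes called higher moved as well, to 32, 14, 23 and 14 without CV A, CV B, CV C and CV D, and to 31, 410, 235 and 78 without GF A, GF B, GF C and GF D. Mki67 was not called without CV B (0.0748) or C (0.0712) or GF A (0.0651). Without both CV A and GF C, an alternative chosen after seeing the data, 4 members were called higher, beside 235 of 9610 genes.

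Mki67 (ENSMUSG00000031004.8, chr7:135689784-135716361) had 53.3, 144.5, 97.2 and 88.5 CPM in libraries CV A to CV D, against 23.9, 39.6, 21.9 and 40.0 CPM in the germ-free libraries. The groups did not overlap (log2 fold change 1.56, SE 0.34, adjusted p = 0.0192). Because its levels fall into separate groups, no correlation over all 8 libraries is given. Each gene was instead set against Mki67 as deviations from the condition means, with exact two-sided permutation of libraries within each condition (smallest possible p 0.00174).

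Within conditions the median correlation with Mki67 was 0.38 over the 24 tested members, beside 0.01 over all genes tested. Lists described below had medians of 0.39 (other genes of these pathways), 0.28 (end joining), 0.57 (mismatch repair), 0.46 (Mcm) and -0.14 (p53 targets). The median Spearman rho was 0.36 for the members and -0.05 for all genes. The correlation was positive for 20 of the 24, beside 51.0% of all genes, and above 0.5 for 8 of them (33.3%), beside 8.65% of all genes. With the littermate pair means removed as well (the pair as a block), 14 of the 24 were positive, with a median of 0.31 beside -0.08 over all genes. Without GF C, 15 of 22 tested members were positive, with a median of 0.31 beside -0.29 over all genes. Without both CV A and GF C, 12 of 21 were positive, with a median of 0.16 beside -0.17 over all genes. The highest was Rad54b, with r = 0.68 (exact permutation p = 0.0191) and rho = 0.81 (exact permutation p = 0.0243).
No member passed adjustment over the 10052 genes correlated with Mki67, the lowest adjusted p from the exact permutations being 0.889, and 1 member had an unadjusted p under 0.05, beside 4.73% of all genes. Fanca and Fancm followed at r = 0.61 each, then Rad51ap1 and Rad54l at 0.59 each, Fancd2 at 0.53, Fancc at 0.52 and Dna2 at 0.51. Fancm and Fancd2 are thus among the members with the higher r, while their log2 fold changes between the conditions were smaller than their SE. The members with a negative r were Fancf (-0.37), Nbn (-0.27), Rad51d (-0.14) and Xrcc3 (-0.07). Ube2t had r = 0.40, Usp1 0.45 and Fancg 0.18. Libraries CV A and CV B had the Mki67 deviations from their condition mean that lay farthest from the median deviation. Without both of them, the median was 0.42 for the members and 0.22 for all genes, and 20 of the 24 members were positive. Rad54b then had r = 0.94 and Fanca 0.97, while Palb2 went from 0.37 to -0.61.

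**Figure D3:**
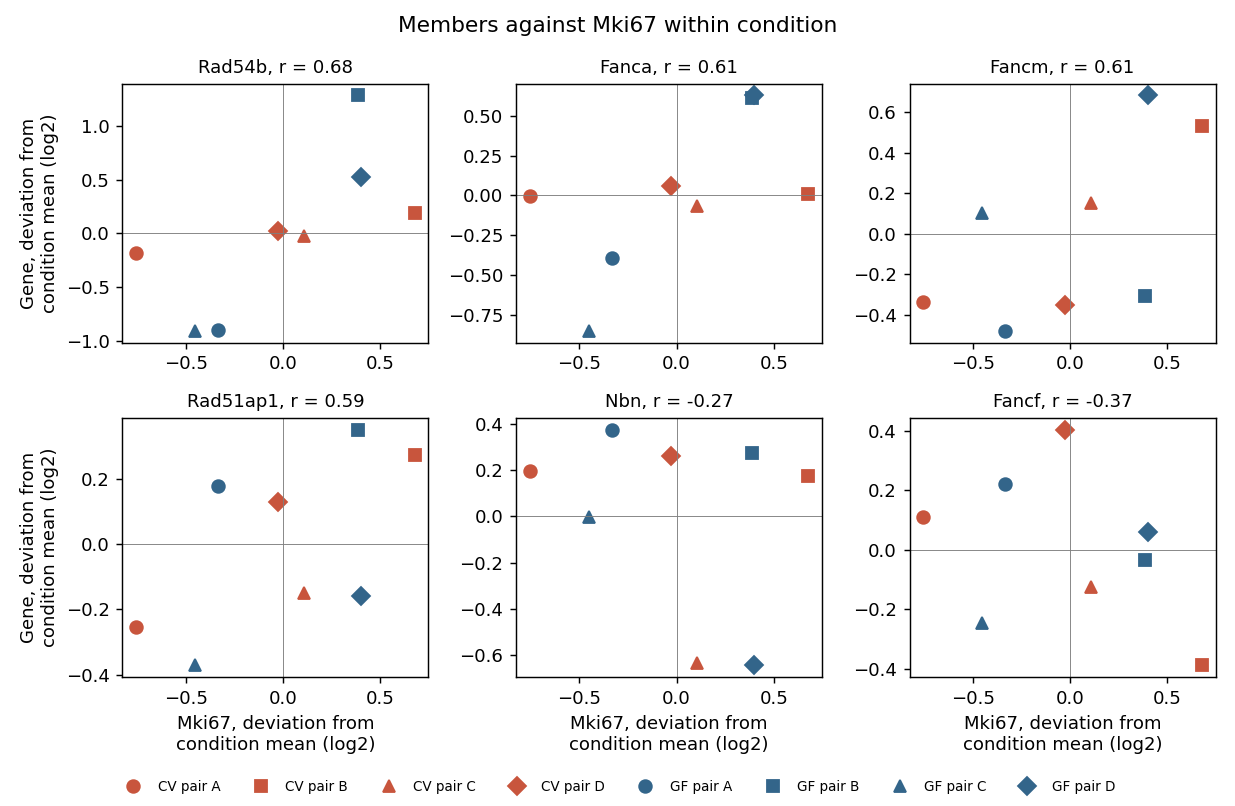
Deviation of 6 members from their condition mean (vertical axis, log2) against the deviation of Mki67 (horizontal axis, log2) in each library, conventionalized (red) and germ-free (blue). Rad54b, Fanca, Fancm and Rad51ap1 run upward, with r of 0.59 to 0.68, and Nbn and Fancf run slightly downward.

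With the Mki67 level as a covariate beside condition, no member and no gene of the 10052 was called by limma. An unadjusted p under 0.05 was found for 0 of the 24 members and 3.63% of all genes. The count over all genes depended on GF C: without that library 195 genes were called, and 113 without GF C and GF D, with no member among them. The SE grew with the covariate, to 0.96 for Ube2t, whose log2 fold change was 1.02, and to 0.68 for Fancg at 1.13. Rad54b was at 0.27 (SE 0.86) and Usp1 at 0.56 (SE 0.81). Mki67 was itself called between the conditions, so its level and the condition are separated in this fit only by the spread of Mki67 within each condition.

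The log2 ratio of each gene to Mki67 was also compared between conditions, a comparison added after seeing the data. Its change is the gene's own log2 fold change less that of Mki67, which was 1.56. A gene with no change of its own thus lies below 0, and a call here does not mean that the gene fell. Relative to Mki67, 5 of the 24 tested members were called lower in conventionalized libraries (20.8%), against 51.2% of all genes, and none higher. They were Brca2 at -2.07 (SE 0.53, limma adjusted p = 0.000751), Fancd2 at -1.71 (adjusted p = 0.0110), Fancm at -1.63 (0.0206), Fancf at -1.30 (0.0389) and Fance at -1.23 (0.0423). Ube2t was at 0.53 (SE 0.53, adjusted p = 0.358), Rad54b at 0.28 (SE 0.60) and Usp1 at -0.01 (SE 0.53). Without single libraries the number called lower was between 1 (germ-free pair C left out) and 12 (conventionalized pair A left out). Over all genes, 2842 of 9716 and 8216 of 9996 were called lower in those fits, in the same order.

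The other genes of the pathways came from a list of 40, of which 38 were tested and 1 was called higher, with none lower. Beside these, 1.16% of all genes tested were called higher and 3.76% lower. The median log2 fold change of the 38 was 0.55, beside 0.32 over all genes. Of the 38, 32 (84.2%) were above 0, beside 70.2% of all genes. Chek2, a checkpoint kinase of the break response, averaged 40.2 ± 5.33 CPM in conventionalized libraries and 19.3 ± 6.79 CPM in GF libraries (log2 fold change 1.09, SE 0.29, adjusted p = 0.0497). Left-out libraries kept that call only for GF B (0.0274) or C (0.0476).
Hells, a chromatin remodeler, was at 1.34 (SE 0.38, adjusted p = 0.0624, and 0.0201 with the pair as a block), and Rmi2, a subunit of the BLM complex, at 1.54 (SE 0.48, adjusted p = 0.0837, block 0.0377). With the block 6 of the 38 were called, all higher, against 8.08% of all genes called higher.

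Neighbouring repair pathways gave lower medians. For the counts below, 27.8% of all genes had an unadjusted p under 0.05 and 8.08% were called higher with the block. Of 14 end joining genes 12 were tested, none was called by limma (1 had an unadjusted p under 0.05), and the median log2 fold change was 0.32, equal to that of all genes. Xrcc6, the smaller Ku subunit, was at 0.63 (SE 0.29, adjusted p = 0.177), and Xrcc4, a ligase cofactor, at -0.78 (SE 0.38, adjusted p = 0.196). Of 7 mismatch repair genes 6 were tested with none called (1 at an unadjusted p under 0.05) and a median of 0.53. All 6 Mcm genes, which encode the replicative helicase, were tested, with a median of 1.33. None was called, all 6 had an unadjusted p under 0.05, and with the block all 6 were called. Mcm6 averaged 427 ± 107 CPM in conventionalized libraries and 179.9 ± 93.7 CPM in GF libraries (log2 fold change 1.41, SE 0.44, adjusted p = 0.0840).
Of 12 p53 target genes 10 were tested, with a median of -0.24. Cdkn1a, an inhibitor of the cell cycle, averaged 181 ± 66.7 CPM in conventionalized libraries and 449.8 ± 126 CPM in germ-free libraries. The list had 3 genes with an unadjusted p under 0.05. Cdkn1a was the only one called, lower at -1.34 (SE 0.36, adjusted p = 0.0465), and it kept that call without CV A (0.0458) or GF B (0.0476) or C (0.00619) alone. Its r with Mki67 within conditions was -0.93 (exact permutation p = 0.0122, adjusted p = 0.783 over all genes). The other p53 targets with an unadjusted p under 0.05 lay higher in all 4 pairs, as did 28.4% of all genes tested. They were Pmaip1, a promoter of apoptosis, at 1.01 (SE 0.36, adjusted p = 0.111, and 0.0411 with the pair as a block) and Ccng1, a cyclin, at 0.68 (SE 0.28, adjusted p = 0.151). Whether these lists differ from the 32 members was not tested.

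Fold changes ran with transcript length over all genes. Spearman's rho between log2 fold change and the length of the longest coding transcript was -0.32 over the 24 tested members and -0.28 over 9687 genes, which are not independent replicates. The median log2 fold change was 0.30 in the 7 members over 5 kb and 0.77 in the 17 up to 5 kb, beside 0.05 and 0.39 in all genes. The 3 members below 0, Brca2, Fancd2 and Fancm, were all over 5 kb, while Exo1 and Mre11a, also over 5 kb, were near 1.
Within libraries, rho between relative level and length ran from -0.44 (conventionalized pair D) to 0.42 (germ-free pair C), and was also above 0 in conventionalized pair B (0.25) and germ-free pair D (0.29). With each library centred on its length trend, an alternative chosen after seeing the data, 2 members were called higher, against 2.09% of all genes. They were Ube2t at 1.54 (adjusted p = 0.0251) and Usp1 at 1.30 (adjusted p = 0.0422), while Rad54b (0.0682) and Fancg (0.0897) were not. With the pair as a block in the same fit, 3 were called higher, Rad54b among them (0.0441), beside 342 of 9687 genes. The median of the members was then 0.46, beside 0.02 for all genes, and Fancf was at -0.18.

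**Figure D4:**
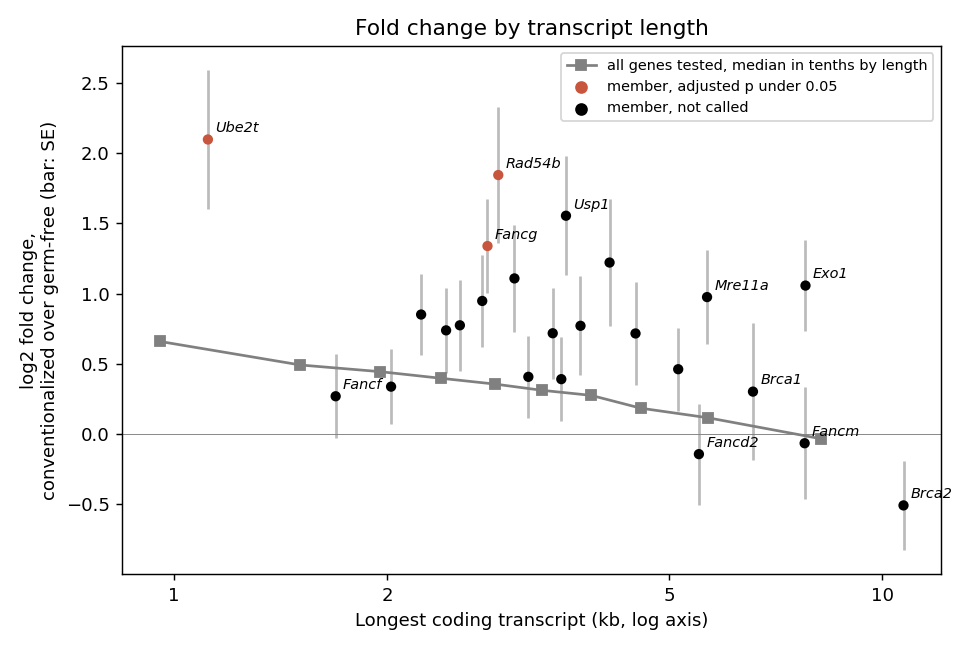
Log2 fold change (vertical axis, conventionalized over germ-free, bars for SE) of the 24 tested members against the length of their longest coding transcript (horizontal log axis, kb), with the median of all genes in bins of equal size by length (grey squares). The grey medians fall from 0.66 at 0.954 kb to -0.03 at 8.19 kb, and the 3 called members, in red, lie above the line.

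Reads of overlapping genes cannot be told apart where the protocol does not mark strand, and no source used here states a stranded count. Exon bases shared with a gene on the opposite strand made up 16.4% of Fancc (Gm16133), 16.0% of Fanci (Polg), 15.4% of Rad54l (Lrrc41), 15.0% of Fancf (Gas2), 13.7% of Fancl (Vrk2) and 10.5% of Fanca (Zfp276). What share of their reads comes from the other gene was not measured.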

How the data were processed

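RNA of 8 libraries of sorted Sox9-EGFP Low jejunal cells was made into libraries from 10 ng of total RNA with SMARTer Ultra Low Input and Nextera XT kits and read as 100 bp single ends, per the labels' protocols. The build mm10, the aligner STAR 2.4.2a, the trimmer Trimmomatic 0.36, DESeq2 1.12.4 and R 3.3.1 are named in the submitters' processing notes. In the series text the authors cite Salmon, followed by edgeR, and keep transcripts of at least 10 CPM. The deposited values are a signal per gene: estimated counts that the authors had divided by library factors, as read from the values. In genes with 1 transcript, 99.9% of values under 50 steps came out whole in units of that library's step (tolerance 0.02), against 30.4% in genes with several transcripts, so whole reads could not be recovered and no count test was run. The whole-multiple check also gave the approximate depths.

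Of 48440 genes, 48058 were matched to a symbol in the GRCm38 annotation, and all 8 columns were mapped. Values were scaled with TMM factors (trims of 30% and 5%), filtered at 10 CPM in at least 4 libraries, and tested as log2(CPM + 0.5) with limma 3.58.1 in R 4.3.3 (trend, robust, condition only). The fold change is on that scale and understates the change of low genes. Two-sided p-values were adjusted by Benjamini-Hochberg over all genes. The procedure was tested on simulated data. The CPM carry no depth per gene, and PCR reads without molecular identifiers are not independent molecules.

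Members and lists were chosen with earlier results of these data known. Values per library are given for the 10 members with the lowest p, the 3 tested members with the smallest absolute log2 fold change and Mki67. Those of Brca1, Brca2 and Brip1 were added after they were seen, and up to 4 genes by lowest p were named from each other list. Some genes of those lists are not reported here. Littermate pairs come from the labels and pair the libraries by design. The correlation within pairs of the deviations from group means was 0.14 in pair A and 0.31 in pair C, but -0.16 in pair B and -0.01 in pair D. The pair as a block was an alternative, as were other filters, pseudocounts, scalings, library weights and left-out libraries. Promoter sequences are from RefSeq, GRCm38.p6.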

Additional observations from a re-analysis of the deposited data

Results flagged for a closer look

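Among 66 groups of 4 libraries, 3 held a library that lay far from the other 3 by Dixon's criterion at the 95% level, and chance alone gives about 1 in 20. In conventionalized libraries, Palb2 was at 27.83 CPM in pair B, while the others were at 12.55 to 14.78 CPM. Nbn was at 19.93 CPM in the conventionalized library of pair C, against 35.37 to 37.57 CPM in the other conventionalized libraries. In germ-free libraries, Blm was at 10.17 CPM in pair D, with the others at 2.913 to 4.095 CPM.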

How the results depend on the processing

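Over all genes, 495 were called, and 1317 with the littermate pair as a block, 1373 with array quality weights, 909 centred on transcript length, 1179 centred on length with the block, and 182 to 782 with 1 library left out. The members called higher, 3 in the fit reported, were 1 with no filter on low values, 1 with library size only, 5 with upper-quartile scaling, 7 with the block, 7 with weights, 5 without germ-free pairs C and D, and 0 to 5 with 1 library left out. Over all genes, the number called higher was 117 of 10053 in the fit reported and moved as well. It was 45 of 38312 with no filter, 116 of 10024 with library size only and 263 of 10028 with upper-quartile scaling. The block gave 812 of 10053, weights 765 of 10053, and omission of germ-free pairs C and D 154 of 9412. Centred on length it was 202 of 9687, and 342 of 9687 with the block. With 1 library left out it was 14 to 410. The median log2 fold change of the tested members, 0.75, was 0.53 with library size only and 0.46 centred on length, with or without the block. Of the other homologous recombination and Fanconi genes 1 was called higher, and 0 with a minimum of 1 CPM, no filter, a pseudocount of 0.1, library size only, either omission of a pair of libraries, or length centring. That number was 2 with upper-quartile scaling, 6 with the block, 7 with weights, 2 with the block and length centring, and 0 to 4 with 1 library left out. The median correlation with Mki67 of 0.38 was 0.16 without conventionalized pair A and germ-free pair C, and 0.31 to 0.40 with 1 library left out. Over all genes that median was 0.01, and in the same alternatives -0.17 and -0.29 to 0.16. The members called lower relative to Mki67, 5 as reported, were 9 with a minimum of 1 CPM, 9 with no filter, 8 with a pseudocount of 2, 9 with the block, 19 with weights, 11 without conventionalized pair A and germ-free pair C, 1 without germ-free pairs C and D, 17 centred on length, 18 with the block as well, and 1 to 12 with 1 library left out. Over all genes, that number was 5148 of 10052 in the fit reported. It was 11918 of 18339 with a minimum of 1 CPM, 31715 of 38311 with no filter and 5324 with a pseudocount of 2. The block gave 6784 of 10052 and weights 9693 of 10052. Without conventionalized pair A and germ-free pair C it was 8331 of 9609, and 1643 of 9411 without germ-free pairs C and D. Length centring gave 8820 of 9686, and 9147 with the block. With 1 library left out it was 2486 to 8216. With Mki67 as a covariate 0 members were called in every alternative run. The sign turned for Fancm, to 0.14 with weights, 0.017 without conventionalized pair A and 0.028 without conventionalized pair D. Fancm reached the filter in only 4 of the 8 single omissions, with a range of -0.23 to 0.028. Fancd2 turned to 0.027 without germ-free pair D and to 0.082 without conventionalized pair A and germ-free pair C. It reached the filter in 7 single omissions, from -0.31 to 0.027. Fancf turned to -0.18 centred on length, with or without the block. The cause was not tested in any of these. Of the single-gene values under alternatives, 244 kept direction and call, 21 gained a call, 28 lost one and 7 turned. Omissions of a pair of libraries and length centring were chosen after seeing the data, and the weights fit stopped before its convergence tolerance. With 4 animals a group and 6209041 to 19139685 reads per library, the SE of the tested members was 0.27 to 0.50 on the log2 scale, which limits the size of change that can be called.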
